A study of Mus musculus with 5 samples.

Results

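The first response of mouse embryonic fibroblasts (MEFs) to an induction medium for neuronal conversion was described from the libraries labelled day 0 and day 2, which are 2 of the 5 samples of a time course. MEFs are the connective tissue cells that grow out of mouse embryos. They were compared over the 11581 of 27729 genes that reached 10 expected counts in either library. The labels give the ICR strain for both samples, and the methods of the study give embryos at mid-gestation without head and internal organs, from which weakly attached cells with neurogenic potential had been washed off. Day 0 cells had grown in DMEM with 10% fetal bovine serum (FBS), Glutamax and non-essential amino acids. Day 2 cells had spent 2 days in a serum-free medium that the labels call 6C and the study calls 5C, which contains DMEM/F12, the N2 supplement, basic fibroblast growth factor (bFGF), leukemia inhibitory factor (LIF), vitamin C and 2-mercaptoethanol, on Matrigel-coated wells. N2 supplies insulin, transferrin and sodium selenite. Each day was 1 culture in 1 library, and no sample analysed here stayed in FBS medium or in serum-free medium without factors until day 2, so that loss of serum, gain of factors, the coating and time in culture cannot be told apart.

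The exchange of media alters several supplies at once. Serum carries cholesterol in lipoproteins, fatty acids, iron-loaded transferrin and the growth factors and lipids that keep actin fibres, SRF and YAP active. A fall of cell sterol frees the SREBP factors, which raise genes of cholesterol and fatty acid synthesis, whereas insulin and bFGF act through receptor kinases on AKT and ERK and LIF acts through STAT3. Gene lists for these pathways, for the extracellular matrix, the cell cycle, metabolism and stress, and for the cell types that a fibroblast culture can hold were compared between the libraries.

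The expected counts, RSEM's estimates of the reads from each gene, summed to 3890334 on day 0 and 2253748 on day 2. A count of 3, the floor used here, corresponds to 0.771 and 1.33 per 1000000 counts in these libraries. To obtain normalized counts, each library was brought to a common size by its total and its TMM factor. A change is the log2 of the normalized count plus 1 on day 2 over that on day 0. The 95% counting interval after it is the exact Clopper-Pearson interval of the ratio of counts. It holds no pseudocount and covers counting error only, since reads carried no molecular identifiers. With 1 library per day no test was possible, and "rose" and "fell" stand for a difference of over 2-fold between these libraries.

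Gm42418 and Lars2 held far larger shares of the day 2 library than of the others. Gm42418, a non-coding RNA gene that lies over ribosomal RNA sequence (ENSMUSG00000098178, GRCm38 chromosome 17, 39846958 to 39848788), held 0.109% of the counts on day 0 and 4.79% (95% interval 4.76 to 4.82) on day 2. Lars2, which encodes the mitochondrial leucyl-tRNA synthetase (ENSMUSG00000035202, chromosome 9, 123366927 to 123462666), held 0.0666% and 1.36% (1.34 to 1.37). On days 5, 10 and 14 the shares were between 0.0484% and 0.0694% for Gm42418 and between 0.0213% and 0.0246% for Lars2. Gm26917 moved with them, from 79 to 465 expected counts. Other entries were also far higher on day 2 than in every other library, such as LTO1, chosen after its value was seen, at 599 normalized counts on day 0, 6282 on day 2 and between 74.2 and 250 on the later days. LTO1 has 14.1% of its words in other entries, most of them in Ccnd1, which is described below. Of other abundant nuclear RNAs, Malat1 had normalized counts of 1450 and 1712 and Neat1 of 694 and 1253, changes of 0.24 and 0.85. Together Gm42418 and Lars2 took 6.14% of the day 2 library. With both left out of the libraries and of the normalization, 1429 genes were over 2-fold higher and 1525 over 2-fold lower, in place of 1431 and 1526.

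**Figure D1:**
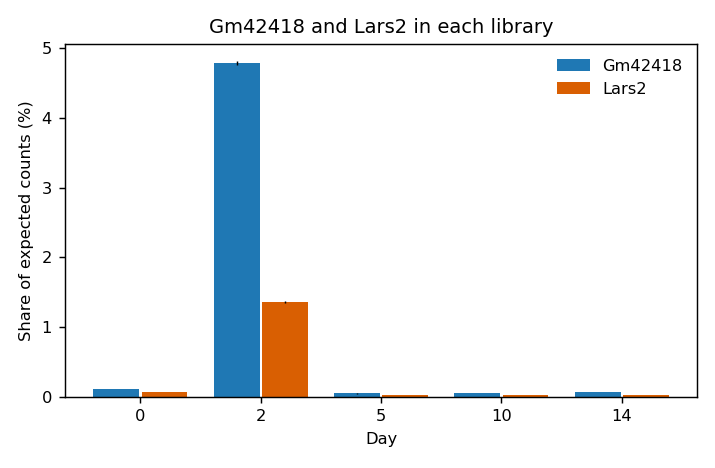
Share of all expected counts (%, from 0) held by Gm42418 and by Lars2 in each of the 5 libraries, by day, with exact 95% counting intervals as thin black bars. Day 2 is the library with 4.79% and 1.36%, and the other 4 libraries lie at or below 0.109% and 0.0666%.

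Between the libraries 1431 genes (12.4% of the genes kept) were over 2-fold higher and 1526 (13.2%) over 2-fold lower on day 2. The counting interval lay wholly beyond 2-fold for 666 genes (5.75%) upward and 444 (3.83%) downward. Over 4-fold, 474 genes (4.09%) were higher and 317 (2.74%) lower. The median change over all genes kept was −0.09. With TPM values, which also divide by gene length, the median moved by −0.18 to −0.28. On that scale 940 genes (8.12%) were higher and 1826 (15.8%) lower. The higher genes made up 34.0% of both in place of 48.4%. These shares over all genes kept are the ones to set beside the counts of list members below. Short genes tended higher than long genes. Of the genes split by length into equal parts, the shortest had a median change of 0.07 with 15.8% over 2-fold higher and 10.2% lower, and the longest had a median of −0.20 with 9.84% higher and 14.9% lower. With each gene centred on genes of like length, 1624 genes were over 2-fold higher and 1292 lower.

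**Figure D2:**
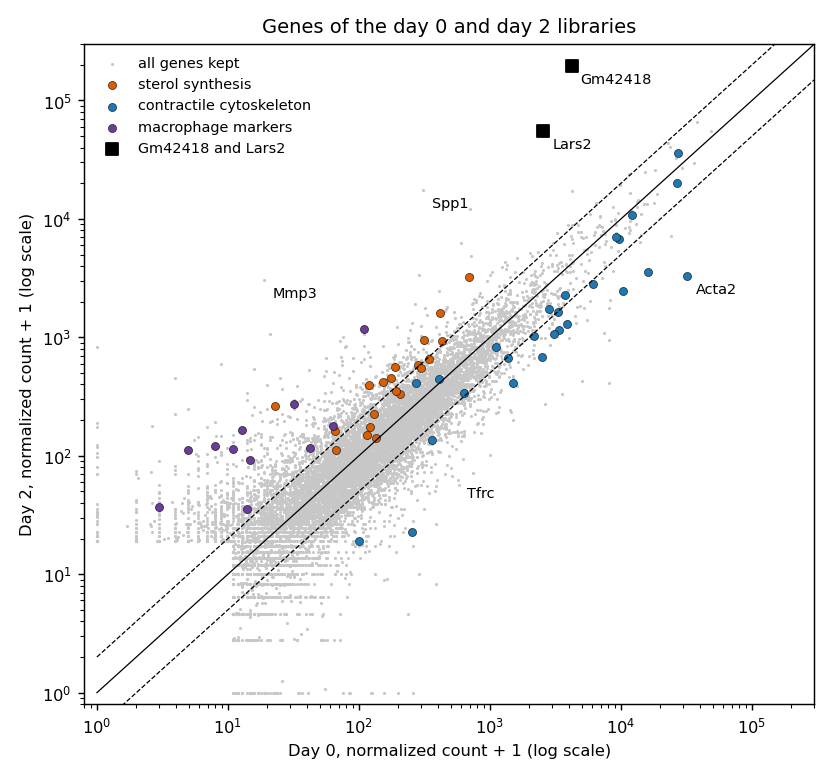
Normalized count plus 1 on day 0 (horizontal, log scale) and on day 2 (vertical, log scale) of each of the 11581 genes kept, with no change as a solid line and 2-fold changes as dashed lines. Sterol synthesis enzymes (orange) lie on or above the line of no change, most contractile genes (blue) lie below it, the 11 macrophage markers kept (purple) lie above the upper dashed line, and Gm42418 and Lars2 (black squares) lie above it too, at 195269 and 55274 normalized counts on day 2.

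Genes of cholesterol synthesis were higher on day 2. Of the 20 enzymes from acetyl-CoA to cholesterol, all of them kept, 11 rose and 0 fell, and for 18 the counting interval lay above no change. The median change was 1.09 (0.75 with TPM values, beside −0.28 for all genes on that scale). Fdps, the farnesyl diphosphate synthase (ENSMUSG00000059743, chromosome 3, 89093588 to 89101959), rose from 694 to 3204 normalized counts, a change of 2.21 (2.08 to 2.34). Fdft1, the squalene synthase, went from 418 to 1596, a change of 1.93 (1.76 to 2.10). Tm7sf2, a sterol reductase late in the pathway, had the widest change of the list, 3.54 (2.95 to 4.32), from 21.8 to 264. The mevalonate enzymes Mvk, Pmvk and Mvd, from acetyl-CoA units to isoprenoid precursors, changed by 1.57, 1.75 and 1.38, and the entry enzymes Acat2 and Hmgcs1 by 1.57 and 1.05. Idi1 changed by 1.46, Dhcr7 by 1.31 and Msmo1 by 1.12. Sqle, the squalene epoxidase and a control point of the pathway, stayed within 2-fold, with 296 and 551 normalized counts and a change of 0.89 (0.66 to 1.13). Cyp51, Ebp, Hsd17b7, Lss, Nsdhl and Sc5d changed by between 0.07 and 0.91. Acat2, Idi1, Fdps and Fdft1 share more than 20% of their sequence words with other gene entries, among which the counting could have divided reads.

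The sterol regulatory element, to which SREBP factors bind, was searched as TCACNCCAC on both strands in RefSeq promoter windows around gene starts (GRCm38.p6). It was present in 1 of the 15 sterol synthesis genes with a window, Hmgcs1, and in 1.44% of all genes with a window. The stretch is shown because Hmgcs1 is the pathway's entry enzyme. It lies at chr13:119690174-119690262 on the plus strand, with the match in capitals, which begins at position −137 from the start of the gene.
Hmgcs1: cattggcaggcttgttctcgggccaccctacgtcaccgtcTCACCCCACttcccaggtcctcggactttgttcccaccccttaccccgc
CCAAT, the core of the site of NF-Y, which acts beside SREBP, was present in 14 of these 15 genes and in 41.1% of all genes with a window, and the motifs do not contain each other. These matches describe the letters in the windows only.

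The other genes under SREBP control were less uniform. Insig1, which holds SREBP back when sterol is plentiful, rose from 233 to 687 (change 1.56, 1.32 to 1.80), and Scap, the sterol-sensing escort of SREBP, from 215 to 478 (1.15, 0.89 to 1.42). Npc1, which moves cholesterol out of lysosomes, went from 168 to 102, a change of −0.72 (−1.19 to −0.29), and Npc2 from 3212 to 4970, a change of 0.63.

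Among 15 genes kept of fatty acid synthesis, desaturation and elongation 8 rose and 0 fell, with a median change of 1.07 (5 rose, with a median of 0.35, with TPM values). Scd1 and Scd2, the stearoyl-CoA desaturases, rose from 186 to 708 (1.92, 1.68 to 2.19) and from 999 to 3371 (1.75, 1.64 to 1.87). Elovl6, which lengthens palmitate, rose from 71.3 to 217 (1.59, 1.17 to 2.05). Fasn, the fatty acid synthase, rose from 840 to 2386 (1.50, 1.38 to 1.63) in normalized counts, but its TPM values of 119 and 117 did not differ in that direction. Acly, which makes cytosolic acetyl-CoA and was chosen after its value was seen, changed by 1.39. On the side of efflux, where LXR receptors act, 4 of 9 genes rose and 0 fell. Apoe, the lipoprotein component, rose from 464 to 1742 (1.91, 1.75 to 2.07). Abca1 and Abcg1, the cholesterol exporters, also chosen after their values were seen, rose from 17 to 50 expected counts (2.36, 1.61 to 3.31) and from 3 to 41 (4.24, 2.99 to 6.98).

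The 17 genes of fatty acid uptake and oxidation had no common direction, with 4 that rose, 3 that fell and a median of −0.03. Of all genes kept 12.4% rose and 13.2% fell. Fabp3, a fatty acid binding protein, fell from 451 to 69.1 (−2.69, −3.23 to −2.23), and Acadm, the medium-chain acyl-CoA dehydrogenase, from 204 to 66.9 (−1.59, −2.15 to −1.10). Angptl4, an inhibitor of lipoprotein lipase, rose from 130 to 397 (1.61, 1.30 to 1.94), and Lpl, the lipase itself, from 85.0 to 189 (1.15, 0.73 to 1.59). Fabp3 is among the genes that share sequence with other entries.

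Iron genes were split. Tfrc, the transferrin receptor through which cells take up iron (ENSMUSG00000022797, chromosome 16, 32608920 to 32632794), fell from 572 to 61.5 normalized counts, a change of −3.20 (−3.76 to −2.72). Fth1, the heavy chain of the iron store ferritin (ENSMUSG00000024661, chromosome 19, 9980598 to 9985098), rose from 4243 to 17222, a change of 2.02 (1.97 to 2.07). The other members that follow were chosen after their values were seen. Slc11a2, an importer of ferrous iron, fell from 171 to 74.2 (−1.20, −1.74 to −0.71). Slc40a1, the exporter ferroportin, had expected counts of 2 and 17 (3.41, 1.88 to 7.12). Ftl1, the light chain of ferritin, had 48370 and 55242 normalized counts, a change of 0.19, and its entry shares 58.4% of its words with a pseudogene. Of 14 iron and zinc genes kept 6 rose and 3 fell, with a median of 0.10 (4 and 2, with a median of −0.15, with TPM values). Among the members named here, Tfrc and Slc11a2 were lower on day 2, and Fth1 and, from few counts, Slc40a1 were higher. Other listed genes of iron transport are not reported singly here.

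Transcripts of some of these genes carry iron-responsive elements, hairpins with the loop CAGTGN that the iron regulatory proteins bind when iron is scarce. As background, binding protects the Tfrc transcript when the elements lie in the 3′ UTR, and blocks translation of ferritin and ferroportin when the element lies in the 5′ UTR. The GENCODE M21 transcripts were searched for an unpaired C, an unbroken stem and this loop, a step added after the values were seen. The search found 4 elements in the 3′ UTR of Tfrc, 1 in the 5′ UTR of each of Fth1, Ftl1 and Slc40a1, and none in the other 10 genes of the iron and zinc list. Elements with a bulge in that stem could not be found, so the lack of a match does not show that Slc11a2 or another gene lacks an element. Over all protein-coding genes 222 of 21901 (1.01%) had a match. The elements are shown because the genes that carry them moved in both directions, with the loop in capitals. The numbers after the names count the elements of Tfrc from the 5′ end.
Tfrc 1: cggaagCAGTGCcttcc
Tfrc 2: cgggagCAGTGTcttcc
Tfrc 3: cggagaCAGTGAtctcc
Tfrc 4: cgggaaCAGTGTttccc
Fth1: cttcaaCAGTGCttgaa
Ftl1: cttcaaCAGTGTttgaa
Slc40a1: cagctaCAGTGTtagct
Iron in the cells and the proteins bound to these elements were not measured.

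Metallothioneins and most of the listed selenoproteins were higher on day 2. Mt1 and Mt2, which bind zinc and copper, rose from 1041 to 3577 (1.78, 1.67 to 1.89) and from 955 to 3005 (1.65, 1.54 to 1.77), and Mt2 shares sequence with another entry. Of 16 listed selenoprotein genes kept 7 rose and 0 fell, with a median change of 0.64 (0.43 with TPM values). Selenop, the secreted carrier of selenium, rose from 53.4 to 471 (3.12, 2.71 to 3.59), and Gpx3, the secreted glutathione peroxidase, from 69.3 to 481 (2.78, 2.41 to 3.20). Selenow, a small redox protein, rose from 711 to 4852 (2.77, 2.65 to 2.89), and Selenoh from 96.0 to 324 (1.74, 1.39 to 2.13). Gpx1, the cytosolic glutathione peroxidase and outside the naming rule, changed by 1.52. The members of the endoplasmic reticulum Selenof and Selenos, chosen after their values were seen, changed by −0.75 and −0.56. Sephs2, a selenoprotein gene that the list leaves out, was also chosen after its value was seen. It fell from 64 to 1 expected counts (−4.52, −10.5 to −2.60), and 34.9% of its words occur in other entries. Median gene length was 1210 bases in this list and 2471 over all genes kept. Centring on genes of like length left a median of 0.64.

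**Figure D3:**
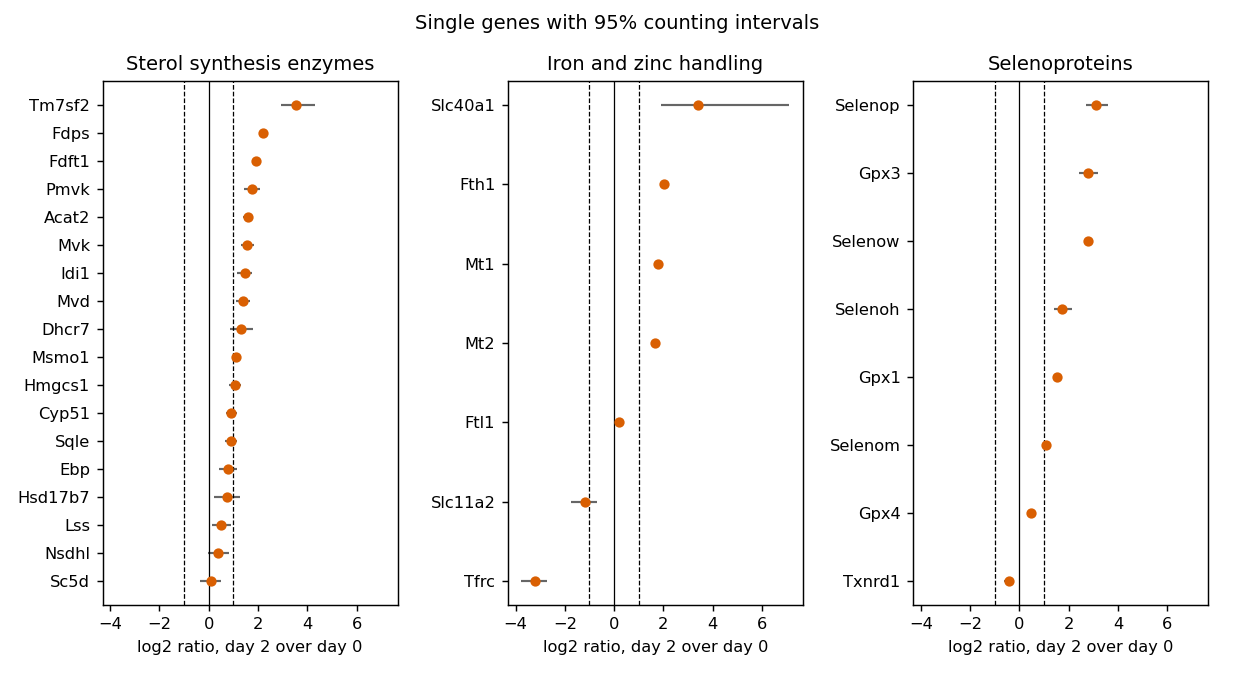
Log2 ratio of day 2 over day 0 (horizontal; dots, pseudocount 1) with 95% counting intervals (grey lines, hidden by the dot where narrow) for 18 of the 20 sterol synthesis enzymes and for 7 iron and zinc genes and 8 selenoproteins chosen after their values were seen. Solid lines mark no change and dashed lines 2-fold. Tfrc at −3.20 lies farthest to the left, and the sterol enzymes lie between 0.07 and 3.54.

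For the factors in the medium, the receptors came first. Of 12 receptors and adaptors kept 0 rose and 3 fell, namely Tfrc, Fgfr2 and Frs2. Fgfr2 had 248 and 49.4 normalized counts (−2.30, −2.98 to −1.77), and Frs2, which couples FGF receptors to ERK signalling, 94.0 and 36.2 (−1.35, −2.15 to −0.67). Fgfr1, at 599 and 435, was the FGF receptor with the most counts and changed by −0.46 (−0.69 to −0.25). For LIF, its receptor Lifr had 33.6 and 21.8 normalized counts, Il6st, the shared signal chain, 517 and 413, and Osmr, the related receptor of oncostatin M, 253 and 431, with changes of −0.60, −0.32 and 0.76. The insulin receptor Insr had 83.1 and 97.7 and Irs1, its substrate, 43.2 and 68.7, with intervals that include no change. The entry Gm9747, which has all of its words in other entries and most of them in Irs1, had 123 and 0 normalized counts, and both summed had 166 and 68.7, a change of −1.26, so the call of Irs1 depends on how reads were divided. Igf1r was at 158 and 90.5 (−0.80, −1.30 to −0.34), Igf2r at 1175 and 1369 (0.22) and Fgfrl1 at 69.3 and 79.6 (0.20, −0.38 to 0.76).

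Genes that ERK signalling induces moved in both directions. Of 18 kept 7 rose and 3 fell, with a median of 0.36. Etv5 and Etv4, ETS factors downstream of FGF receptors, rose from 54.4 to 335 (2.60, 2.18 to 3.08) and from 69.3 to 246 (1.81, 1.40 to 2.27). Spred3, an inhibitor of the pathway, rose from 65.3 to 280 (2.09, 1.68 to 2.54), and the D cyclin Ccnd1 from 472 to 1796 (1.93, 1.77 to 2.09). In contrast, Myc fell from 502 to 77.8 (−2.67, −3.17 to −2.24). Etv4 and the members that follow were chosen after their values were seen. Dusp6, the phosphatase that removes ERK activity, rose from 222 to 490 (1.14, 0.88 to 1.41). Spry1 fell from 78.2 to 21.3 (−1.83), while Spry2, with 242 and 293 normalized counts, had an interval of −0.02 to 0.57. Etv5, Ccnd1 and Spry1 share sequence with other entries. Ccnd1 has 21.6% of its words in other entries, most of them in LTO1. Both summed had 1071 and 8078 normalized counts, a change of 2.91, so the size of the rise of Ccnd1 depends on how reads were divided.

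The immediate-early genes, which serum raises within an hour, had a median of −0.43, with 3 of 21 that rose and 5 that fell (1 and 7 with TPM values). Fosb rose from 40.6 to 271 (2.71, 2.23 to 3.28) and Fos from 128 to 275 (1.10, 0.76 to 1.46). Maff fell from 147 to 38 (−1.93, −2.69 to −1.29) and Klf6 from 1164 to 460 (−1.34, −1.54 to −1.14). Among 13 genes that STAT3 is known to induce 6 rose and 3 fell. Socs3, the feedback inhibitor of LIF signalling, rose from 42.6 to 183 (2.08, 1.57 to 2.65), and Icam1 from 83.6 to 274 (1.70, 1.33 to 2.13). Timp1 was at 4133 and 7209 (0.80), and Pim1 fell from 145 to 70.6 (−1.03, −1.58 to −0.52). Stat3 itself, chosen after its value was seen, had 372 and 363 normalized counts and an interval of −0.29 to 0.22. Of 14 FoxO factors and FoxO-induced genes, which insulin keeps low through AKT, 2 rose and 1 fell (1 and 1 with TPM values). Over all genes kept 12.4% rose and 13.2% fell. Gadd45a had 123 and 206 normalized counts, Txnip 116 and 136 and Foxo3 165 and 192.

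The contractile cytoskeleton was lower on day 2. Of 26 genes of actin, myosin and their SRF-regulated partners, all of them kept, 0 rose and 15 fell, with a median of −1.05 (−1.36 with TPM values). Acta2, the smooth muscle actin of myofibroblasts (ENSMUSG00000035783, chromosome 19, 34241090 to 34255590), fell from 32045 to 3325 normalized counts, a change of −3.27 (−3.34 to −3.20). Lmod1, which nucleates actin filaments, fell from 252 to 21.7 (−3.48, −4.51 to −2.71), and Mylk, the myosin light chain kinase, from 99.0 to 18.1 (−2.39, −3.56 to −1.51). Tagln fell from 16174 to 3549 (−2.19, −2.26 to −2.12), with an entry that shares 58.3% of its words with another. The cytoplasmic actins did not fall. Chosen after their values were seen, Actb was at 27026 and 36111 (0.42, 0.39 to 0.44) and Actg1 at 26738 and 20227 (−0.40, −0.43 to −0.37), the latter in an entry that shares sequence with others. Markers of skeletal muscle leaned in the same direction, 4 of 6 kept having fallen and 1 risen. The interval of 2 of the 4 lay wholly beyond 2-fold. A marker kept only through day 0 could not have risen over 2-fold. Acta1 and Des held most of the 1256 normalized counts of this marker list on day 0. Acta1, the skeletal muscle actin, fell from 579 to 56.1 (−3.35, −3.94 to −2.85), Des was at 582 and 318 (−0.87), and Myf5, Myf6 and Pax7 were at 0 in both libraries. The part of muscle cells in these changes was not tested. In such bulk samples fewer cells of a type and less RNA per cell cannot be told apart.

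The CArG box, the site of SRF, is CC and GG around a run of A and T, and reads alike on both strands. It was found in the promoter windows of 5 of 22 contractile genes and of 1.81% of all genes with a window. The stretches are shown because these genes share the motif but not the size of the change. Myl9 changed by −1.85, Myl6 and Actg1 by −0.16 and −0.40, and Vcl by 0.14, and Cnn2 had 3280 and 1639 normalized counts. Vcl also shares sequence with another entry. Their positions are chr2:156775263-156775352 for Myl9, chr10:79988504-79988593 for Cnn2 and chr14:20929148-20929220 for Vcl on the plus strand, and chr10:128493010-128493099 for Myl6 and chr11:120348536-120348625 for Actg1 on the minus strand. The box is in capitals.
Myl9: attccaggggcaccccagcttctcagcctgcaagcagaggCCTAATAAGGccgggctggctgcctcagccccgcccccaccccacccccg
Cnn2: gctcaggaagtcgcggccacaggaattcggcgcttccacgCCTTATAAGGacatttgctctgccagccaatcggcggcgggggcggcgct
Actg1: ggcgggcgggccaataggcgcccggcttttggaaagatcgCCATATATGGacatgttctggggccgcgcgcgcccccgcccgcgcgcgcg
Myl6: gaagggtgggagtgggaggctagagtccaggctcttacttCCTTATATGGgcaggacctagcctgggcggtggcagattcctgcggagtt
Vcl: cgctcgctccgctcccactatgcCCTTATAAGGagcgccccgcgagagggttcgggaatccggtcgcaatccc

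Targets of YAP and TEAD, factors that respond to cell tension and serum lipids, were lower too. Of 22 genes 0 rose and 11 fell, with a median of −0.98 (−1.07 with TPM values). Ccn2, a matricellular protein, fell from 5009 to 429 (−3.54, −3.74 to −3.36). Tgfb2, a TGF-beta ligand, fell from 146 to 18.1 (−2.95, −4.11 to −2.10), F3, the tissue factor of blood clotting, from 625 to 92.3 (−2.75, −3.20 to −2.35), and Amotl2, a YAP inhibitor, from 1412 to 243 (−2.53, −2.81 to −2.29). GGAATG, the core of the TEAD site on either strand, was in the windows of 7 of 15 of these genes, of 9 of 22 contractile genes and of 16.6% of all genes with a window. Ligands, inhibitors and targets of TGF-beta signalling were lower as well. Of 23 genes 2 rose and 11 fell, with a median of −0.98. Thbs1, thrombospondin, fell from 8138 to 944 (−3.11, −3.24 to −2.98), and the inhibitor Smad6 from 184 to 19.9 (−3.15, −4.24 to −2.34). Tgfbi, which carries the name of the pathway, rose from 63.3 to 505 (2.97, 2.60 to 3.41). Tgfb2 stands in both lists.

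Among 12 genes of BMP signalling and Id proteins 1 rose and 6 fell, with a median of −1.25. Id2 and Id3, which block bHLH factors of differentiation, fell from 277 to 41.4 (−2.71, −3.42 to −2.12) and from 1958 to 579 (−1.76, −1.93 to −1.59). Bmp4 fell from 211 to 65.1 (−1.68, −2.25 to −1.18). Bmp2, chosen after its value was seen, had expected counts of 8 and 22 (2.19, 1.11 to 3.71). In the Notch list 1 of 11 genes kept rose and 5 fell. Jag1, a ligand, fell from 209 to 34.4 (−2.57, −3.37 to −1.93), and Rbpj, the DNA-binding partner of Notch, rose from 204 to 572 (1.48, 1.23 to 1.75). Notch2 was at 161 and 141 and Hes1, a main target, at 424 and 385, both with intervals that include no change.

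**Figure D4:**
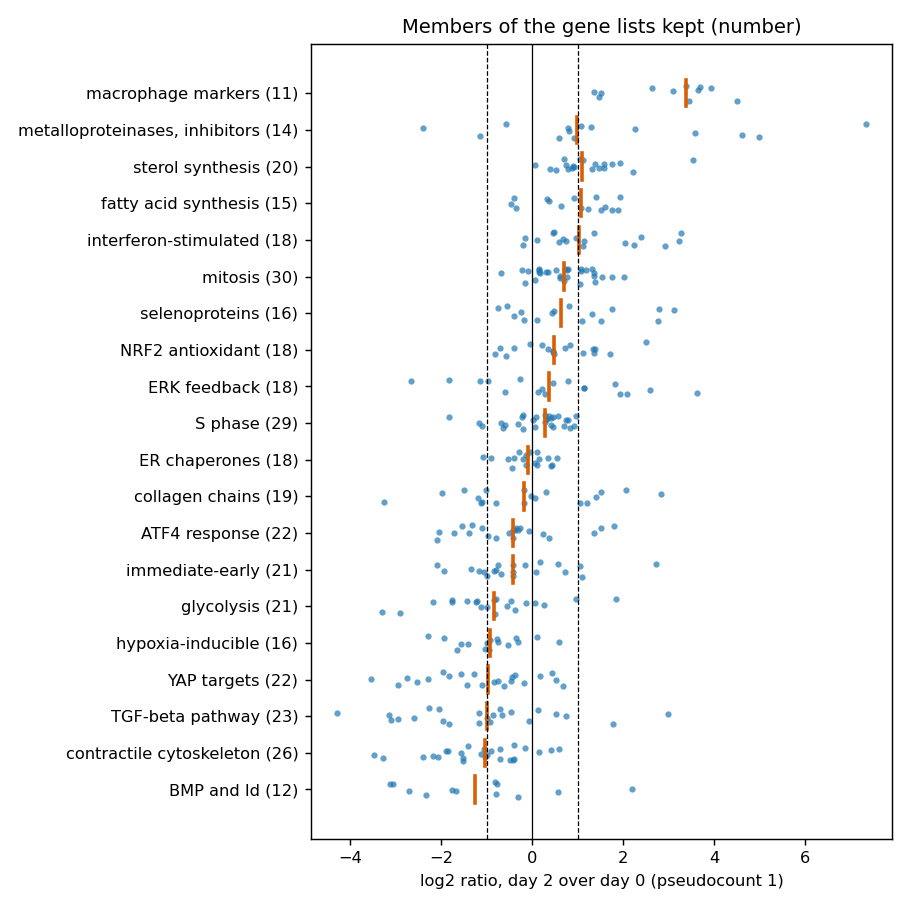
Log2 ratio of day 2 over day 0 (horizontal) of each member kept of 20 gene lists, with the number kept in brackets, the list median as an orange bar, no change as a solid line and 2-fold as dashed lines. Points are spread vertically only to be seen. Medians run from −1.25 for BMP and Id genes to 3.38 for macrophage markers.

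Collagens changed chain by chain. Of 19 chains 6 rose and 7 fell, with a median of −0.18. With TPM values 2 rose and 8 fell (median −0.46), and centred on genes of like length 6 rose and 3 fell (median 0.06), so the balance between the directions depends on the scaling. Col12a1, a fibril-associated chain of tissue under load, fell from 2623 to 275 (−3.25, −3.50 to −3.02), and Col5a2, a chain of fibril cores, from 5479 to 1391 (−1.98, −2.09 to −1.87). Col18a1, a basement membrane chain, rose from 267 to 1894 (2.82, 2.63 to 3.02), and Col16a1 from 235 to 977 (2.05, 1.84 to 2.28). Chosen after their values were seen, the main chains of type I collagen parted, with Col1a1 at 13963 and 6390 (−1.13) and Col1a2 at 7548 and 7444 (−0.02), and Col3a1 was at 1316 and 3756 (1.51, 1.41 to 1.61). Of 16 genes of collagen processing 1 rose and 4 fell (0 and 5 with TPM values). Lox, which cross-links collagen, fell from 7358 to 1087 (−2.76, −2.88 to −2.64) and Plod2, a lysyl hydroxylase, from 303 to 86.8 (−1.79, −2.27 to −1.36). P4ha2, a prolyl hydroxylase, which as an enzyme class needs vitamin C, fell from 287 to 127 (−1.18, −1.58 to −0.80).

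Matrix proteases were higher. Of 14 metalloproteinases, plasminogen activators and inhibitors 7 rose and 2 fell, with a median of 0.99 (0.80 with TPM values). Mmp3, stromelysin (ENSMUSG00000043613, chromosome 9, 7445822 to 7455975), rose from 18 expected counts to 1672, or from 17.8 to 3025 normalized counts (7.33, 6.74 to 8.17). Mmp13, a collagenase encoded nearby on the same chromosome, had 7 and 106 expected counts (4.60, 3.70 to 6.14). Mmp23 rose from 55.4 to 669 (3.57, 3.19 to 4.03). Plaur, the receptor of urokinase, fell from 298 to 56.0 (−2.39, −2.99 to −1.87). In the list of insulin-like growth factors and their binding proteins 5 of 12 rose and 3 fell. Igfbp4 rose from 245 to 1145 (2.22, 2.01 to 2.45) and Igfbp5 from 183 to 604 (1.72), whereas Igfbp7 fell from 1507 to 453 (−1.73, −1.93 to −1.54) and Pappa, the protease that cuts Igfbp4, from 102 to 34.4 (−1.54, −2.36 to −0.85).

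Glycolysis was lower on day 2. Of 21 genes of glucose uptake and glycolysis 1 rose and 9 fell, with a median of −0.83 (−1.17 with TPM values). Hk2, the inducible hexokinase, fell from 168 to 16.3 (−3.29, −4.52 to −2.41), and Ldha, the lactate dehydrogenase, from 8090 to 1782 (−2.18, −2.28 to −2.09). Slc16a3, which exports lactate, fell from 509 to 66.9 (−2.91, −3.45 to −2.45), and Pgk1 from 4513 to 1322 (−1.77, −1.89 to −1.66). The pseudogene entry Pgk1-rs7, identical to Pgk1 over its words, had 0 and 104 normalized counts, and both summed fell by 1.66 on the log2 scale. Gapdh, often taken as a reference gene and chosen after its value was seen, went from 24212 to 7110 (−1.77, −1.82 to −1.72), with 25.1% of its words in other entries. Genes that HIF induces outside glycolysis were lower as well. Of 16 kept 0 rose and 6 fell, with a median of −0.93. Adm, adrenomedullin, fell from 269 to 54.3 (−2.29, −2.91 to −1.76), Bnip3, a mitophagy receptor, from 183 to 61.5 (−1.56, −2.15 to −1.04), and Ndrg1 from 216 to 105 (−1.03, −1.48 to −0.62). Bnip3 shares sequence with another entry.

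The respiratory chain did not follow. Of 76 nuclear-encoded subunits kept 6 rose and 3 fell, with a median of 0.24 (3 rose and 4 fell, with a median of 0.03, with TPM values, and −0.03 when centred on genes of like length). Atp5e rose from 1338 to 4061 (1.60, 1.50 to 1.70) and Cox6b2, a form best known from testis, from 152 to 852 (2.48, 2.22 to 2.76). Atp5g2 fell from 1219 to 362 (−1.75, −1.98 to −1.54), and a pseudogene identical to it over its words, Gm10175, had 0 and 829 normalized counts. Summed, the pair had 1219 and 1190, a change of −0.03, so that the fall of Atp5g2, 1 of the 3, was absent from the sum. Of 37 proteasome subunits 2 rose and 0 fell, with a median of 0.07 (3 and 1 with TPM values). The 2 were Psmb8 and Psmb9, immunoproteasome subunits chosen after their values were seen, at 14.8 and 134 (3.09, 2.36 to 4.08) and at 4.27 and 34.4 (2.75, 1.53 to 5.13).

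The genes of the amino acid response, which ATF4 induces, leaned lower. Of 22 kept 3 rose and 7 fell, with a median of −0.43. Ddit3, the stress factor CHOP, fell from 1618 to 391 (−2.05, −2.26 to −1.84), Trib3 from 104 to 23.5 (−2.10, −3.10 to −1.31) and Atf5 from 1778 to 542 (−1.71, −1.89 to −1.54). Pck2, the mitochondrial PEP carboxykinase, rose from 133 to 464 (1.80, 1.50 to 2.12). Chaperones of the endoplasmic reticulum moved little, with 0 of 18 that rose and 1, Herpud1, that fell (165 and 77.8, −1.08, −1.61 to −0.60), or 2 with TPM values and 0 when centred on genes of like length. Of 18 antioxidant genes under NRF2 6 rose and 0 fell, with a median of 0.47. With TPM values 3 rose and 1 fell, with a median of 0.18. Gstm1 rose from 121 to 687 (2.50, 2.21 to 2.82), Nqo1 from 62.3 to 206 (1.71, 1.27 to 2.19), and Srxn1 and Prdx1, which reduce peroxides together, from 174 to 458 (1.39) and from 2007 to 5106 (1.35, 1.26 to 1.43).

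Genes of the cell cycle moved little in S phase and more in mitosis, and the gap was narrower with TPM values. Of 29 genes of DNA replication and S phase 0 rose and 3 fell, with a median of 0.29, but with TPM values 3 rose and 2 fell and the median was 0.06. Tk1 was at 106 and 208 (0.97, 0.58 to 1.37), Uhrf1 at 106 and 188 (0.82) and Rrm2 at 293 and 181 (−0.69, −1.04 to −0.36). Of 30 mitosis genes 11 rose and 0 fell, with a median of 0.71, but with TPM values 4 rose and the median was 0.35. Pttg1, securin, rose from 63.3 to 217 (1.76, 1.33 to 2.24), Birc5, survivin, from 124 to 326 (1.39, 1.06 to 1.74), Cdc20, the activator of the anaphase-promoting complex, from 159 to 409 (1.35, 1.06 to 1.66) and Mki67 from 121 to 309 (1.35, 1.01 to 1.70). Inhibitors of the cycle encoded by the Cdkn2 genes were higher at the same time. Cdkn2a, which encodes p16 and p19ARF, rose from 109 to 1062 (3.27, 2.99 to 3.59) and its neighbour Cdkn2b, which encodes p15, from 296 to 1028 (1.79, 1.59 to 2.00). Cdkn1a, the p53 target p21 and chosen after its value was seen, was at 4119 and 2867 (−0.52, −0.61 to −0.44). Trp53 fell from 482 to 197 (−1.29, −1.60 to −0.99). In that list of D cyclins, CDK inhibitors and p53 genes 4 of 16 rose and 1 fell (3 and 2 with TPM values). Of the replication-dependent histones 14 of 64 were kept, 3 rose and 4 fell, and the entries Hist2h2aa1 and Hist2h2aa2, identical over their words, had 83.1 and 0 and 16.7 and 130 expected counts.

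Of 12 regulators of apoptosis of the Bcl2 family 2 rose and 3 fell, beside 12.4% and 13.2% of all genes kept. With TPM values 0 rose and 5 fell, beside 8.12% and 15.8% of all genes kept. Bcl2l2, which protects cells, fell from 124 to 39.0 (−1.65, −2.37 to −0.99). Bid and Pmaip1, which promote death, fell from 183 to 72.4 (−1.33, −1.87 to −0.84) and from 202 to 88.6 (−1.18, −1.67 to −0.73). The other death-promoting genes Bbc3 and Bcl2l11, chosen after their values were seen, were at 73.2 and 174 (1.23, 0.79 to 1.70) and at 46.5 and 103 (1.13, 0.57 to 1.74).

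Several groups of immune genes held members that rose. Of 12 chemokines and inflammatory ligands kept 7 rose and 0 fell, with a median of 1.65. The most abundant members in the named set did not lead, since Ccl7 had 298 and 599 normalized counts (1.00, 0.78 to 1.24), Ccl2 196 and 358 (0.87), Csf1 1523 and 930 (−0.71) and Cxcl12 789 and 470 (−0.74). The sum over this list was 3870 and 3492 normalized counts, a change of −0.15 and so of the opposite sign to the median. Chosen after its value was seen, the alarmin Il33 had expected counts of 3 and 45, a change of 4.38 (3.14 to 7.11), and Ccl11 had 0 and 14, at least 8.53-fold higher against a floor of 3 counts. Of 18 interferon-stimulated genes 9 rose and 0 fell, with a median of 1.04 (0.71 with TPM values). Ifit3 rose from 27.9 to 216 (2.91, 2.35 to 3.61), although its entry shares 51.2% of its words with Ifit3b, Ifi27 from 236 to 602 (1.35, 1.11 to 1.60), Ifi35 from 184 to 403 (1.13) and Stat2 from 101 to 219 (1.11). Of 7 complement genes kept 4 rose and 0 fell.

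Macrophage markers moved with these lists. Of 15 markers 11 were kept, and all 11 rose, with a median of 3.38 and changes between 1.35 and 4.49. Over all 15 markers, kept or not, expected counts summed to 312 before and 1347 after the change of medium. The normalized sum went from 309 to 2437 (2.98). Lyz2, lysozyme, rose from 108 to 1177 (3.44, 3.15 to 3.75) and Cd68 from 30.7 to 271 (3.10, 2.58 to 3.75). C1qa, of complement C1q and chosen after its value was seen, had 4 and 61 expected counts (4.49, 3.37 to 6.72). Markers with fewer than 10 counts on day 0, such as C1qa, were kept only through day 2 and could only be higher there. The filter therefore tilts the count of 11 and the median upward, whereas the sum over all 15 markers does not depend on it. It acted in the same way on other genes with fewer than 10 expected counts on day 0. Above, these were Abcg1, Slc40a1, Bmp2, Mmp13, Psmb9, Il33 and Ccl11, and below Vwf, Agtr2, Mcpt8 and Ccl8. Counts over lists that hold such genes are tilted likewise. Among them is the complement list with C1s1, chosen after its value was seen. Ptprc, which marks white blood cells, had 0 and 1 expected counts, and Adgre1, the F4/80 antigen, 3 and 8. Whether a larger share of macrophages took part in the higher chemokine, complement, interferon, Apoe, Spp1 or protease genes was not tested.

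Defining markers of the labelled cell type were present on both days. Vim was at 29392 and 26957, Fn1 at 13458 and 14421 and Col1a2 at 7548 and 7444 normalized counts. Of 18 fibroblast markers 4 rose and 2 fell (3 and 4 with TPM values, 4 and 1 when centred on genes of like length). Lum and Dcn, small matrix proteoglycans, rose from 23.8 to 450 (4.19, 3.64 to 4.91) and from 102 to 621 (2.59, 2.28 to 2.94). Pdgfra rose from 94.0 to 398 (2.07, 1.73 to 2.44), whereas Pdgfrb, its sister receptor, fell from 1167 to 259 (−2.17, −2.43 to −1.92). Neural genes had no common direction at this time. Of 19 neuron and neural progenitor markers 9 were kept, 2 rose and 2 fell. Nefl, 1 of the 2 that rose and chosen after its value was seen, had 1.65 and 21.7 normalized counts and was kept only through day 2. It has 31.8% of its words in other entries, most of them in Nefm. Both summed had 28.7 and 48.8 normalized counts, a change of 0.75 and so within 2-fold. Gap43, a growth cone protein, rose from 113 to 378 (1.74, 1.41 to 2.09), while Map2 fell from 196 to 50.7 (−1.93, −2.58 to −1.38), Ncam1 fell from 305 to 101 (−1.58, −2.03 to −1.17) and Stmn2 was at 448 and 264 (−0.76). Elavl3, Snap25 and Rbfox3 were at 0 in both libraries, which allows up to 1.33 per 1000000 counts on day 2. Of 13 Schwann cell and neural crest markers 8 were kept, 3 rose and 2 fell (0 and 2 with TPM values), each with fewer than 100 expected counts.

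Markers of 2 other cell types were sparse. Of 10 endothelial markers 4 were kept, of which 2 rose and 1 fell, with a median of 1.07. Egfl7 and Vwf, chosen after their values were seen, had expected counts of 45 and 76 (1.60, 1.08 to 2.19) and of 4.02 and 10 (1.94, 0.40 to 4.32), and Emcn had 35 and 28, with an interval that includes no change. In the other direction, Kdr, the VEGF receptor, had expected counts of 238 and 2, a change of −5.68 (−9.08 to −4.16), and Cldn5 was at 0 in both libraries. The sum over the endothelial list was 324 and 227 normalized counts, a change of −0.51 and so of the opposite sign to the median. Flt1, another VEGF receptor outside the list and chosen after its value was seen, fell from 341 to 47.1 (−2.83, −3.49 to −2.28). Of 12 epithelial markers 4 were kept, of which 2 rose and 1 fell (1 and 1 with TPM values). Krt18 rose from 30.7 to 293 (3.21, 2.69 to 3.86) and Krt19 fell from 348 to 159 (−1.13, −1.48 to −0.79), while Cdh1, Krt5, Cldn7 and Ocln were at 0 in both libraries.

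The largest differences beyond counting error, over all genes kept, included entries with near copies. Among the 12 genes that rose most by their lower bound, Gm10175, Gm21244, Gm42418, Ugt1a9, Clvs1 and Pgk1-rs7 share between 34.6% and 100% of their words with other entries. Summed with the entry it shares most words with, Gm10175 changed by −0.03 and Gm21244 by 0.26, Clvs1 by 1.24 and Pgk1-rs7 by −1.66. The others were Mmp3, Mcpt8, Spp1, Ccl8, Agtr2 and Cd34. Spp1, osteopontin, had 309 and 17547 normalized counts (5.82, 5.67 to 6.00), and Cd34, a surface protein of progenitor and stromal cells, 19.8 and 1073 (5.69, 5.12 to 6.48). Agtr2, an angiotensin receptor, had 8 and 327 expected counts (6.05, 5.23 to 7.45), and Mcpt8, a protease gene of the mast cell family, had 3 and 251 (6.84, 5.69 to 9.54). Ccl8, a chemokine, had 0 and 104, at least 63.4-fold higher. Among the 12 that fell most, Gm10184, Gm10273, Gm29084, Gm17122, Gm9747, Hist2h2aa1 and Gm5611 share between 43.7% and 100% of their words with others. Syn3, with 289 and 5.03 expected counts, lies over Timp3 in the opposite direction. It has 14.2% of its words in other entries, most of them in Timp3. Reads from the shared bases cannot be told apart without a stated strand. Both summed had 1221 and 432 normalized counts, a change of −1.50. Rnps1 had 85.8 and 0 expected counts (at least 15.6-fold lower). Summed in the same way, Gm10184 changed by 0.01, Gm10273 by −0.68, Gm29084 by −0.76 and Gm17122 by −0.92, all within 2-fold, and Gm9747 and Gm5611 by −1.26 and −1.37. The others described here were Kdr and Rgs4, a regulator of G protein signalling with 393 and 4 expected counts (−5.57, −7.63 to −4.38). Crabp1, which binds retinoic acid and was chosen after its value was seen, went from 708 to 12014 normalized counts (4.08, 3.97 to 4.20).

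The later libraries give the same genes side by side, and since all share day 0 no likeness between days was computed. After day 2 Fdps had normalized counts of 1136, 524 and 717 on days 5, 10 and 14, so that it was highest on day 2. Selenow, with 1535, 803 and 1018, was also highest on day 2. Mmp3 with 6979, 2109 and 1870, Lyz2 with 2738, 1407 and 974, and Fth1 with 20453, 8159 and 9018 were highest on day 5. Cdkn2a was at 1062 on day 2 and 1037 on day 5, and at 408 and 546 thereafter. Among the genes that fell, Acta2 went on to 666, 253 and 142, and Tagln to 790, 271 and 181. Col12a1 was lowest on day 2 and had 357, 910 and 633 afterwards. Tfrc was at 124, 81.4 and 57.2, Myc at 97.1, 108 and 170, and Hk2 at 56.9, 32.1 and 25, each below its day 0 value in every later library.

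**Figure D5:**
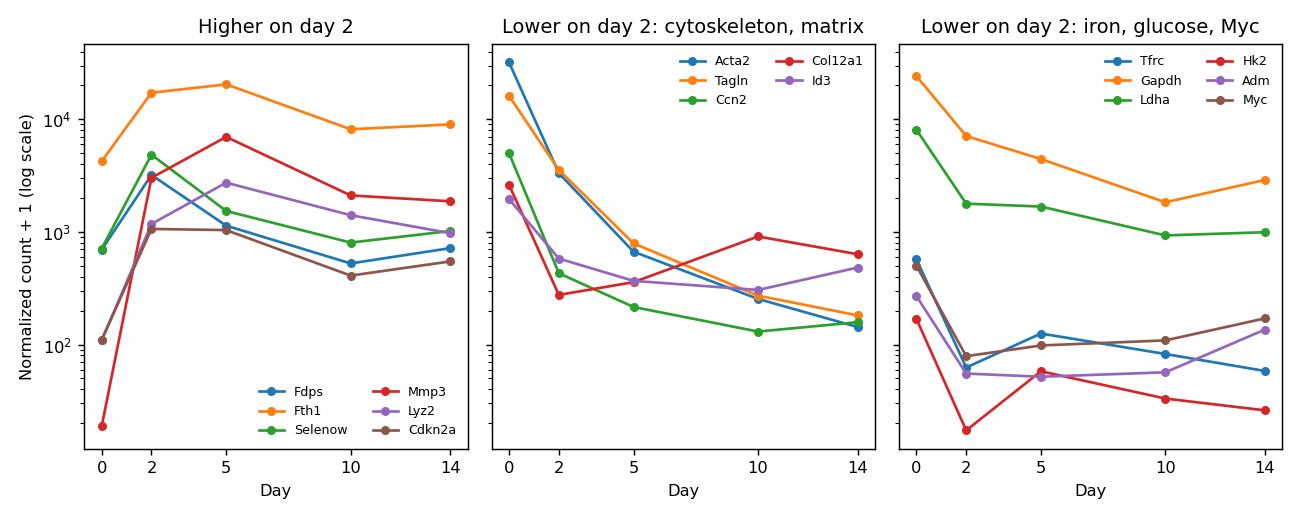
Normalized count plus 1 (vertical, log scale) in each of the 5 libraries by day, for 17 genes from the comparison of day 2 with day 0, with 1 library per point and no error bars. Fdps and Selenow peak on day 2, Acta2 and Tagln fall at each step, and Tfrc, Hk2 and Myc stay below day 0 in every later library.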

How the data were processed

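Total RNA of 5 MEF samples had been made into libraries with a TruSeq kit, and the samples were assigned to days by their labels. Per the submitters' processing notes Bowtie, RSEM and the genome build mm10 were used. Their versions, the annotation and any use of strand are not given in the sources used here. The authors deposited expected counts per gene, RSEM's estimates without scaling for library size, beside TPM values, which are divided by gene length and scaled per library. The deposited FPKM values were not used. Genes were named from GENCODE M21 (GRCm38), with a match for 27247 of 27729 identifiers. The 482 others held 0.609% of the day 0 and day 2 counts.

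Expected counts were rounded for TMM factors over the 5 libraries (edgeR 4.0.16, R 4.3.3), which were 0.856 on day 0 and 0.808 on day 2, and for exact Clopper-Pearson intervals (scipy 1.17.1, Python 3.11.15). Genes with 10 or more expected counts on day 0 or day 2 were kept, of which 315 had 10 to under 12 in their higher library. A further 357 had 8 to under 10. Ratios used a pseudocount of 1, which for TPM values was 1 TPM without a TMM factor. The members and the 46 gene lists were chosen with earlier results of these data known. The text draws the genes it names from the 4 members of each list that changed most among those with 100 or more expected counts in either library, the sterol synthesis list, all receptors kept, the 12 genes in each direction with the bound farthest from no change, and cell type markers at 0 or used to check the label. Others are said to be chosen after their values were seen. Genes sharing 20% or more of their words of 50 bases with other genes are named as sharing sequence. Promoter windows came from RefSeq (GRCm38.p6) and hairpins from GENCODE M21 transcripts.

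Alternatives were DESeq2 size factors (DESeq2 1.42.0), total counts, upper quartile, TMM over the 2 libraries, TMM without Gm42418 and Lars2, TPM values, centring on genes of like length in 20 bins, a pseudocount of 5, other count filters, a 4-fold threshold and, added after seeing the data, sums of a gene with the entry it shares most words with. The computations were tested on simulated data. Mitochondrially encoded genes and most cytosolic ribosomal protein genes were not analysed here. Some list members, and 1 of the genes with the farthest bounds, are counted but not reported singly here.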

Additional observations from a re-analysis of the deposited data

How the results depend on the processing

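Against 1431 genes over 2-fold higher and 1526 over 2-fold lower, TPM values gave 940 higher. A filter of 100 or more counts in either library gave 454 and 711, a filter of 1 or more gave 3469 and 2331, 10 or more counts in both libraries gave 948 lower, and a 4-fold threshold gave 474 and 317. The share of higher genes among those called was 48.4%, with 34.0% for TPM values and 39.0%, 59.8% and 59.9% for the filters of 100 and of 1 and the 4-fold threshold. Both counts stayed within 1.5 times under DESeq2 size factors, total counts, upper quartile, TMM over the 2 libraries or without Gm42418 and Lars2, centring on genes of like length, a pseudocount of 5 and, added after seeing the data, protein-coding genes only. Of 90 counts of list members that rose or fell, 19 moved by over 1.5 times with TPM values, 16 with 10 or more counts in both libraries, 31 with 100 or more in either (beside 55 that did not), 10 with 1 or more and 57 with the 4-fold threshold. Centring on genes of like length moved 8, upper quartile and a pseudocount of 5 moved 3 each, total counts 2, TMM without Gm42418 and Lars2 1, and DESeq2 size factors and TMM over the 2 libraries 0. Summing a gene with the entry it shares most words with, added after seeing the data, ended the calls of Atp5g2 and Nefl and put Irs1 beyond 2-fold among the list genes named. It reversed Gm10175 to −0.034, Pgk1-rs7 to −1.66 and Gm10184 to 0.014. Of 204 named genes, Fasn reversed with TPM values, from 1.50 to −0.024. The authors' TPM divides by a length that depends on the isoforms counted, and the cause was not tested. With TPM values the median of all genes moved by −0.18, and 86 other named genes moved beyond their counting interval without changing sign. No paired analysis was possible because each day is 1 library, and for the same reason no library could be left out of the comparison. At these depths, genes under 3 counts, 0.771 and 1.33 per 1000000 counts on day 0 and day 2, could not be told from 0.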
